A study of Mus musculus with 16 samples.

Results

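Mouse embryonic stem (ES) cells leave naive pluripotency when the inhibitors and cytokine that hold them there are withdrawn, and the question here was whether their RNA 40 h later changed by a different amount depending on the medium in which they had been kept. For each gene the exit effect is the log2 fold change from 0 to 40 h in 1 medium, and the interaction is the exit effect of cells from serum/LIF+2i minus that of cells from 2i/LIF. All genes with enough counts were taken, which were 14288 of the 27179 genes in the table, and the comparison rests on 8 of the 16 libraries, in 4 groups of 2. Both maintenance media contained leukaemia inhibitory factor (LIF), 2 mM glutamine, 2-mercaptoethanol and 2i, the pair of inhibitors 3 μM CHIR99021 and 1 μM PD0325901. The group 2i/LIF at 0 h was kept in serum-free 2i/LIF, a DMEM/F-12 and Neurobasal mix with N-2 and B-27 supplements. The group 2i/LIF at 40 h was moved for 40 h into that base without 2i or LIF. The group serum/LIF+2i at 0 h was kept in knockout DMEM with 10% fetal bovine serum, LIF and 2i. The group serum/LIF+2i at 40 h was moved for 40 h into a serum-free mix of glutamine-free DMEM and Neurobasal with the same supplements, 2-mercaptoethanol and 2 mM glutamine, again without 2i or LIF. The base medium of the exit step therefore differed together with the maintenance medium, and their parts in the exit effects, the interactions and the medium differences after 0 h cannot be told apart. All cells came from serum/LIF cultures on gelatin adapted to either medium; the labels name no ES cell line. Nothing in the labels says whether the 2 libraries of a group came from separate cultures, so the p-values measure the spread between these libraries, which may be technical.

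As background, CHIR99021 inhibits GSK3 and so raises Wnt signalling, PD0325901 inhibits MEK and so blocks ERK signalling, and LIF acts through STAT3. When all of them are removed, cells lose naive factors such as Nanog and Esrrb and pass into a formative state marked by Otx2 and the de novo DNA methyltransferases. Serum brings lipids, cholesterol, proteins and growth factors that the defined medium supplies differently or not at all, so sterol, fatty acid and nutrient-responsive genes are known to depend on it.

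Total counts in the 8 libraries ran from 5931381 to 11142744, the latter in serum/LIF+2i at 40 h, and ribosomal RNA genes took between 0.468% and 1.14% of them. Markers of ES cells (Pou5f1, Sox2, Sall4, Lin28a, Utf1, Trim71 and Dppa4) summed to between 1576 and 2558 CPM (counts scaled to a fixed total per library, with TMM-adjusted library sizes) in these libraries. The 9 markers of fibroblasts that feeder layers hold summed to 8.38 to 26.1 CPM, with Postn at 0 throughout. Among them Pdgfrb reached 13.4 CPM in 2i/LIF at 0 h, and Dcn reached 13.4 in 2i/LIF at 40 h. The 8 primitive endoderm markers summed to 6.53 to 18.7 CPM. The 6 trophoblast markers summed to 5.89 to 72.3 CPM, highest at 0 h in both media, with Elf5 at no more than 0.152. Most of their 0 h sum was Tfap2c, at 54.3 to 64.6 CPM at 0 h and 1.63 to 3.96 at 40 h. The counting's strand setting is not given in the sources used here, so reads of genes that overlap in the annotation cannot be assigned for certain; among the genes below these are Slc16a3 (with Csnk1d), Tpi1 (Spsb2), Atf5 (Nup62), Ddit3 (Mars1), Ppp1r15a (Tulp2), Cln3 (Apobr), Shmt2 (Ndufa4l2), Usp44 (Metap2), Nphs1 (Nphs1os), Nid2 (Rtraf), Arsa (C230037L18Rik), Prdx1 (AV051173), Peg3 (Peg3os), and Meg3 and Rian (Rtl1). In bulk RNA, fewer cells of a type and less RNA per cell cannot be told apart.

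The exit response differed between the media for many genes, mostly by small amounts. By edgeR's quasi-likelihood test at an adjusted p under 0.05, 3940 of 14288 genes (27.6%) had an interaction, which is what "called" means below. Of these, 2109 (14.8% of genes tested) had a more positive exit effect in serum/LIF+2i and 1831 (12.8%) a more negative one. With only the 8 libraries of the comparison fitted, the counts were 1873 and 1891, so this lean depended on the libraries used. DESeq2 called 2419. The median absolute interaction was 0.50 among called genes and 0.29 over all genes tested; 803 called genes had an absolute interaction of at least 1, and 264 of at least 2. In 119 called genes both libraries of at least 1 group held 3 counts or fewer; their fitted values depend on the prior count and are not given. For comparison, the exit effect itself was called for 68.8% of genes in 2i/LIF, compared with 70.5% in serum/LIF+2i.

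Most often a called gene moved the same way in both media and differed in how far. Among the 2109 more positive genes, 619 fell in both media and fell further in 2i/LIF, 510 rose in both and rose further in serum/LIF+2i, 422 fell in 2i/LIF only and 379 rose in serum/LIF+2i only. Among the 1831 more negative genes, 472 fell in both and further in serum/LIF+2i, 440 rose in both and further in 2i/LIF, 395 rose in 2i/LIF only and 363 fell in serum/LIF+2i only. Here "only" means that the exit effect of the other medium was not called. The 2 media moved a gene in opposite directions, with both exit effects called, in 308 cases, 162 of which rose in serum/LIF+2i and fell in 2i/LIF.

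**Figure D1:**
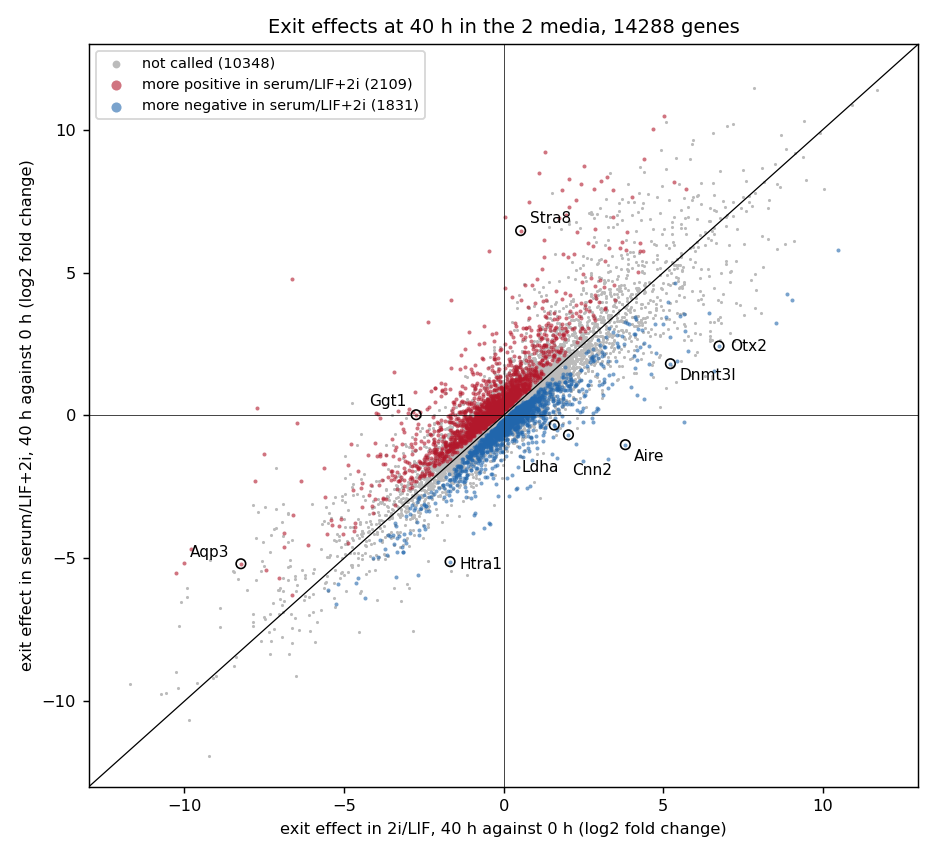
Exit effect of each of 14288 genes at 40 h (log2 fold change against 0 h) in 2i/LIF (x axis) and in serum/LIF+2i (y axis); 1 point is 1 gene, colours show the direction of called interactions, circles mark named genes, and the diagonal marks equal exit effects. Most coloured points lie close to the diagonal, while Stra8 (interaction 5.93) and Aire (-4.84) lie far from it. The reads of Aire cannot be told apart from those of Dnmt3l.

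The interaction is also the medium difference at 40 h minus the medium difference at 0 h, so called genes were sorted by whether the media differed at each time. The media differed for 33% of genes tested before exit and for 27.3% at 40 h, a count of 3897 that fell to 2240 when replicate 1 of 2i/LIF at 40 h was left out and to 2010 by DESeq2. In 1751 of the called genes (44.4%) a difference present at 0 h was no longer called at 40 h. In 988 (25.1%) a difference appeared that had not been called at 0 h. In 702 (17.8%) it was called at both times with opposite signs, so that the medium with more of the RNA before exit had less at 40 h. Differences narrowed in 180 genes and widened in 65.

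Genes of glycolysis, the breakdown of glucose to pyruvate and lactate, rose less or fell more in cells from serum/LIF+2i. Of 21 members tested, 15 were called, all more negative, and none was called more positive; the list's median interaction was -0.65, against 0.02 over all genes tested. Before exit 12 members were higher in serum/LIF+2i and 4 lower; at 40 h, 1 was higher and 16 were lower. Leaving out each library in turn kept the median between -0.69 and -0.52 and the number called between 13 and 17.

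Ldha (Entrez 16828, chr7:46842274-46855627 in RefSeq's GRCm38.p6), which makes the lactate dehydrogenase subunit that favours lactate production, had the smallest adjusted p of all genes. Its libraries stood at 439.6 and 454 CPM at 0 h and 1395 and 1289.8 at 40 h in 2i/LIF, against 1268 and 1173 at 0 h and 968 and 964 at 40 h in serum/LIF+2i. The serum/LIF+2i libraries lay above those of 2i/LIF at 0 h and below them at 40 h, and the interaction was -1.92 ± 0.051 (SE), adjusted p = 6.28e-62. Ldha rose in 2i/LIF and fell in serum/LIF+2i, with exit effects of 1.59 (2i/LIF) and -0.34 (serum/LIF+2i). At 24 h it was still higher in serum/LIF+2i, at 645 and 648 CPM against 512 and 520.5 in 2i/LIF.

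Other steps of the pathway did likewise. Pfkl, a phosphofructokinase, stood at 114 and 106 CPM at 0 h and 372 and 344 at 40 h in 2i/LIF, against 229.5 and 205 at 0 h and 320.1 and 301 at 40 h in serum/LIF+2i, an interaction of -1.19 ± 0.068 (SE), adjusted p = 6.83e-30. Eno1, an enolase, stood at 338 and 338 CPM at 0 h and 844 and 774 at 40 h in 2i/LIF, against 482 and 517 at 0 h and 548 and 552 at 40 h in serum/LIF+2i, an interaction of -1.12 ± 0.055 (SE), adjusted p = 6.89e-34. In both genes the serum/LIF+2i libraries were above before exit and below at 40 h, without overlap. Slc16a3, which encodes the lactate exporter MCT4, rose in both media with exit effects of 4.27 (2i/LIF) and 2.40 (serum/LIF+2i), from 14.1 and 13.1 to 276 and 249 CPM in 2i/LIF and from 33.4 and 25.1 to 154 and 156 in serum/LIF+2i. Its interaction was -1.87 (adjusted p = 3.34e-18). Tpi1, triosephosphate isomerase, had an interaction of -0.80 (adjusted p = 2.22e-26).

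The Ldha promoter is shown because its start region is rich in the core ACGTG bound by hypoxia-inducible factors, a motif chosen after the values were seen; E-boxes (CACGTG) contain it. The sequence is RefSeq's (GRCm38.p6, chr7:46845554-46845853, plus strand), from 250 bases before the start that the table gives to 50 after, with matches on either strand in capitals.
Ldha: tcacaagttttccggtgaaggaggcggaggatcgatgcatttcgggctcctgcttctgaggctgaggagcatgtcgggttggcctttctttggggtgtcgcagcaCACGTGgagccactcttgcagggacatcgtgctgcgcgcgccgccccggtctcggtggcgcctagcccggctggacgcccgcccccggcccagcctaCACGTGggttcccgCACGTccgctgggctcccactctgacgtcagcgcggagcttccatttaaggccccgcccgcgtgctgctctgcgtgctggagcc
It held 5 matches over both strands, since each of the 2 CACGTG counts once on either strand. Of 20 glycolysis genes with a promoter in the reference table, 13 (65.0%) held ACGTG, against 29.1% of the 10940 tested genes with one and 21.8% of all 27025. Of those 13 members 8 were called more negative and 5 (Hk1, Hk2, Pfkm, Aldoc and Gapdh) were not called. CACGTG was in 3 of the 20 (15%), against 11.8% of tested genes. A match is a description of these letters only.

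Genes of fatty acid synthesis and of cholesterol synthesis and uptake moved the other way: most were lower in serum/LIF+2i before exit, and the medium difference shrank by 40 h. For fatty acid synthesis, 10 of 12 members were called more positive and 1 more negative, with a median interaction of 0.51. Before exit 11 were lower in serum/LIF+2i and 1 higher, whereas at 40 h the media differed for 3. For cholesterol genes, 17 of 25 were called more positive and 1 more negative, with a median of 0.35. Before exit 21 were lower in serum/LIF+2i and 0 higher; at 40 h 15 were still lower and 0 higher.

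Scd1, a stearoyl-CoA desaturase that makes monounsaturated fatty acids, stood at 561 and 561 CPM at 0 h and 464 and 456 at 40 h in 2i/LIF, against 261 and 294 at 0 h and 458 and 445 at 40 h in serum/LIF+2i. It was lower in serum/LIF+2i before exit, and at 40 h the libraries of the media overlapped. It fell slightly in 2i/LIF and rose in serum/LIF+2i, with exit effects of -0.29 (2i/LIF) and 0.70 (serum/LIF+2i) and an interaction of 0.99 ± 0.054 (SE), adjusted p = 2.23e-32. Scd2, Acly (ATP-citrate lyase, the source of cytosolic acetyl-CoA) and Fads1 (a desaturase) had interactions of 0.90, 0.53 and 0.75, with adjusted p-values of 2.28e-19, 1.97e-17 and 8.43e-17. The member called the other way was Elovl5, an elongase, at -0.34 (adjusted p = 1.36e-04).

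Cyp51, a demethylase of the late steps of cholesterol synthesis, stood at 184 and 189 CPM at 0 h and 238 and 248 at 40 h in 2i/LIF, against 96.4 and 101 at 0 h and 223 and 231 at 40 h in serum/LIF+2i. It rose in both media, with exit effects of 0.38 (2i/LIF) and 1.2 (serum/LIF+2i), and the medium difference was called before exit and not at 40 h. The interaction was 0.82 ± 0.067 (SE), adjusted p = 3.29e-20. Dhcr7, a reductase of the last steps, had an interaction of 0.76 (adjusted p = 1.54e-14), and Pmvk, an enzyme of the mevalonate steps, went the other way at -0.50 (adjusted p = 6.70e-04). The letters TCACNCCAC of the sterol regulatory element, searched on both strands, were in 1 of 17 cholesterol promoters in the table (5.88%; Hmgcs1) and in 0 of 9 promoters of fatty acid synthesis genes, a search added after the values were seen, against 1.47% of tested genes.

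**Figure D2:**
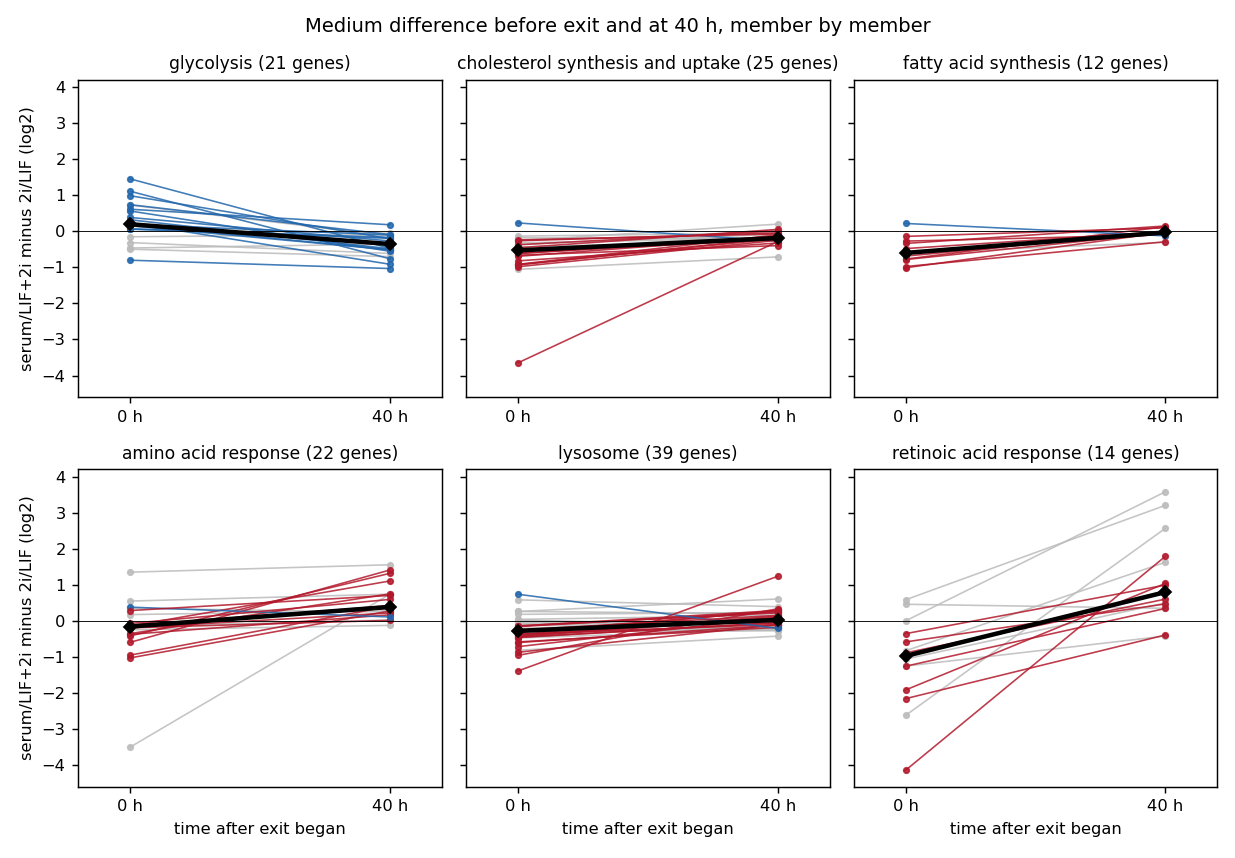
Medium difference (serum/LIF+2i minus 2i/LIF, log2) at 0 h and 40 h for each tested member of 6 gene lists; a line joins the 2 values of a gene, red and blue lines are called interactions, grey lines are not called, and black diamonds are the list medians. Glycolysis genes go from a median of 0.19 to -0.36, cholesterol genes from -0.53 to -0.19, and amino acid response genes from -0.16 to 0.39.

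Many, but not all, listed genes of the transcriptional response to amino acid shortage, which runs through the factor ATF4, had a more positive exit effect in serum/LIF+2i. Of 22 members, 14 were called more positive and 1 more negative, and the median interaction was 0.49 (0.47 without the 1 member that had a group at 3 counts or fewer per library). The medium difference was called for more members at 40 h than before exit: 4 members were higher and 7 lower in serum/LIF+2i at 0 h, but 18 were higher and 1 lower at 40 h. Over the libraries left out in turn, between 11 and 13 were called more positive. Asns, Gpt2 and Nupr1 were not called, at -0.10, 0.12 and 0.17, and Atf4 itself was called at 0.21.

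Trib3, a pseudokinase that ATF4 induces, stood at 45.2 and 47.5 CPM at 0 h and 114 and 121 at 40 h in 2i/LIF, against 37.2 and 35.5 at 0 h and 201 and 194 at 40 h in serum/LIF+2i. It was lower in serum/LIF+2i before exit and higher at 40 h, without overlap, and the interaction was 1.10 ± 0.10 (SE), adjusted p = 5.59e-17. At 24 h, Trib3 stood at 53.6 and 58.4 CPM in 2i/LIF and already at 189 and 184 in serum/LIF+2i. Atf5, a related transcription factor, stood at 42.9 and 37.7 CPM at 0 h and 76.4 and 98.4 at 40 h in 2i/LIF, against 28.5 and 24.7 at 0 h and 238 and 225 at 40 h in serum/LIF+2i, an interaction of 2.01 ± 0.15 (SE), adjusted p = 7.51e-13. Ddit3, which encodes CHOP, stood at 13.3 and 14.9 CPM at 0 h and 17.4 and 27.4 at 40 h in 2i/LIF, against 10.4 and 10.7 at 0 h and 55.2 and 56.0 at 40 h in serum/LIF+2i, an interaction of 1.74 ± 0.22 (SE), adjusted p = 1e-09. In each of the 3 genes both libraries of serum/LIF+2i at 40 h were above all other libraries of the comparison.

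Ppp1r15a, which encodes the phosphatase subunit GADD34, fell in 2i/LIF and rose in serum/LIF+2i, with exit effects of -0.49 (2i/LIF) and 0.76 (serum/LIF+2i), an interaction of 1.25 ± 0.13 (SE), adjusted p = 4.54e-14. Xpot, a tRNA exporter, and Cth, cystathionine gamma-lyase, had interactions of 0.51 and 0.42 (larger adjusted p = 1.49e-08). Eif4ebp1, a repressor of translation initiation, was the member called the other way, at -0.27 (adjusted p = 3.82e-05).

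Amino acid transporters of the plasma membrane were mixed, with 11 of 27 called more positive, 3 more negative and a median interaction of 0.27. Slc1a4, a carrier of neutral amino acids such as serine and alanine, stood at 49.5 and 50.7 CPM at 0 h and 114 and 125 at 40 h in 2i/LIF, against 29.7 and 32.0 at 0 h and 144 and 144 at 40 h in serum/LIF+2i, an interaction of 0.97 ± 0.11 (SE), adjusted p = 3.19e-13. Its serum/LIF+2i libraries were below those of 2i/LIF at 0 h and above them at 40 h. Slc16a10, a carrier of aromatic amino acids, stood at 10.7 and 8.81 CPM at 0 h and 13.7 and 16.3 at 40 h in 2i/LIF, against 3.38 and 3.67 at 0 h and 23.5 and 21.3 at 40 h in serum/LIF+2i, an interaction of 2.04 ± 0.28 (SE), adjusted p = 1.53e-09. Slc3a2, the heavy chain shared by several exchangers, and Slc7a1, a carrier of cationic amino acids, had interactions of 0.43 and 0.74, with Slc7a1 falling in 2i/LIF and rising in serum/LIF+2i, at exit effects of -0.22 (2i/LIF) and 0.53 (serum/LIF+2i). Slc43a1, a carrier of large neutral amino acids, had one of 1.61 (adjusted p = 4.31e-06). Slc7a6 and Slc6a15, carriers of cationic and of branched-chain amino acids, were more negative at -0.63 and -0.97, with adjusted p-values of 1.76e-06 and 0.00113.

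A promoter of each of these 2 lists is shown for the letters TGATGNAA, the composite element of ATF4 and C/EBP, searched on both strands and printed in capitals where found. RefSeq (GRCm38.p6) places them at chr2:152344011-152344310, minus strand, for Trib3 and at chr11:20332664-20332963, minus strand, for Slc1a4, with the start again 250 bases in.
Trib3: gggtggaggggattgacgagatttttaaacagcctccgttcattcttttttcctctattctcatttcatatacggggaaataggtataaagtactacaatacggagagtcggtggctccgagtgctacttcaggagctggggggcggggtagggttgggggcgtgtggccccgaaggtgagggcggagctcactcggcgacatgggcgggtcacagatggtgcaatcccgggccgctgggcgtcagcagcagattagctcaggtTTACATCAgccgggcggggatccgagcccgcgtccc
Slc1a4: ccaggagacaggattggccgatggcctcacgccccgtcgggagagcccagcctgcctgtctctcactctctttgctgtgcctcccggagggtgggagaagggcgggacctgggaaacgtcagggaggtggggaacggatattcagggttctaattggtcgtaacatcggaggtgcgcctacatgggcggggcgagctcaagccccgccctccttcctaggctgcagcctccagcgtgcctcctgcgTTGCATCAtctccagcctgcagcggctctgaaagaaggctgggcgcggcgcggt
Both matches lie on the opposite strand. In the amino acid response list 8 of 20 promoters (40.0%) held the letters, against 2.70% of tested genes and 4.51% of all genes with a promoter in the table; the list was drawn up from known targets of this pathway. Of those 8 members 4 were called more positive (Chac1, Trib3, Vldlr and Jdp2) and 4 were not called (Atf3, Asns, Nupr1 and Fgf21). Among the transporters 3 of 23 (13%) did, a search added after the values were seen.

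Lysosomal genes mostly fell during exit in either medium: of 39 members, 30 fell in 2i/LIF, as did 27 in serum/LIF+2i. The interaction was called more positive in 18 members and more negative in 1, and 20 were not called; the median was 0.35. Before exit 21 were lower in serum/LIF+2i and 3 higher, and at 40 h 3 were lower and 11 higher. Grn, the progranulin gene, went from 333 and 329.6 to 62.4 and 58.3 CPM in 2i/LIF and from 194 and 209 to 66.4 and 62.6 in serum/LIF+2i, so the medium difference was called before exit and not at 40 h. Its interaction was 0.81 ± 0.082 (SE), adjusted p = 3.46e-15. Tpp1, a lysosomal peptidase, and Lamp1, a membrane protein, had interactions of 0.67 and 0.43 (larger adjusted p = 5.62e-11). Arsa, arylsulfatase A, was the member called the other way, at -0.95 (adjusted p = 1.15e-04). Subunits of the V-ATPase, the pump that acidifies lysosomes, had 5 of 17 called more positive and 0 more negative. That is 29.4% called, close to the 27.6% of all genes tested that were called either way, of which 14.8% were more positive. The more positive count was 2 by DESeq2 and 3 if replicate 1 of 2i/LIF at 40 h was left out. The clearest was Atp6ap2 at 0.42 (adjusted p = 7.56e-05).

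Cln3, a lysosomal membrane protein, stood at 52.9 and 48.5 CPM at 0 h and 22.9 and 25.0 at 40 h in 2i/LIF, against 27.3 and 24.8 at 0 h and 29.7 and 30.7 at 40 h in serum/LIF+2i. It fell in 2i/LIF, with an exit effect of -1.08; in serum/LIF+2i its exit effect of 0.21 was not called. The interaction was 1.29 ± 0.15 (SE), adjusted p = 9.92e-13. Its promoter (GRCm38.p6, chr7:126583187-126583486, minus strand) is shown for the E-box CACGTG, the core of the element bound by TFEB, in capitals.
Cln3: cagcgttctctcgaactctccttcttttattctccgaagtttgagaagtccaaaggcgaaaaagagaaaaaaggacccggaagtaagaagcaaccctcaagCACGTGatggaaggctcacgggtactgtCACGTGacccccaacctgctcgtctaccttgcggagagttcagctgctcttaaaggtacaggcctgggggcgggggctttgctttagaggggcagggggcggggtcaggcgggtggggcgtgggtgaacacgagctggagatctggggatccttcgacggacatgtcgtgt
Of 30 lysosomal promoters in the table, 12 (40.0%) held CACGTG, against 11.8% of tested genes and 8.09% of all. Of those 12 members 5, among them Lamp1 and Cln3, were called more positive, Arsa was called more negative and the other genes were not called.

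**Figure D3:**
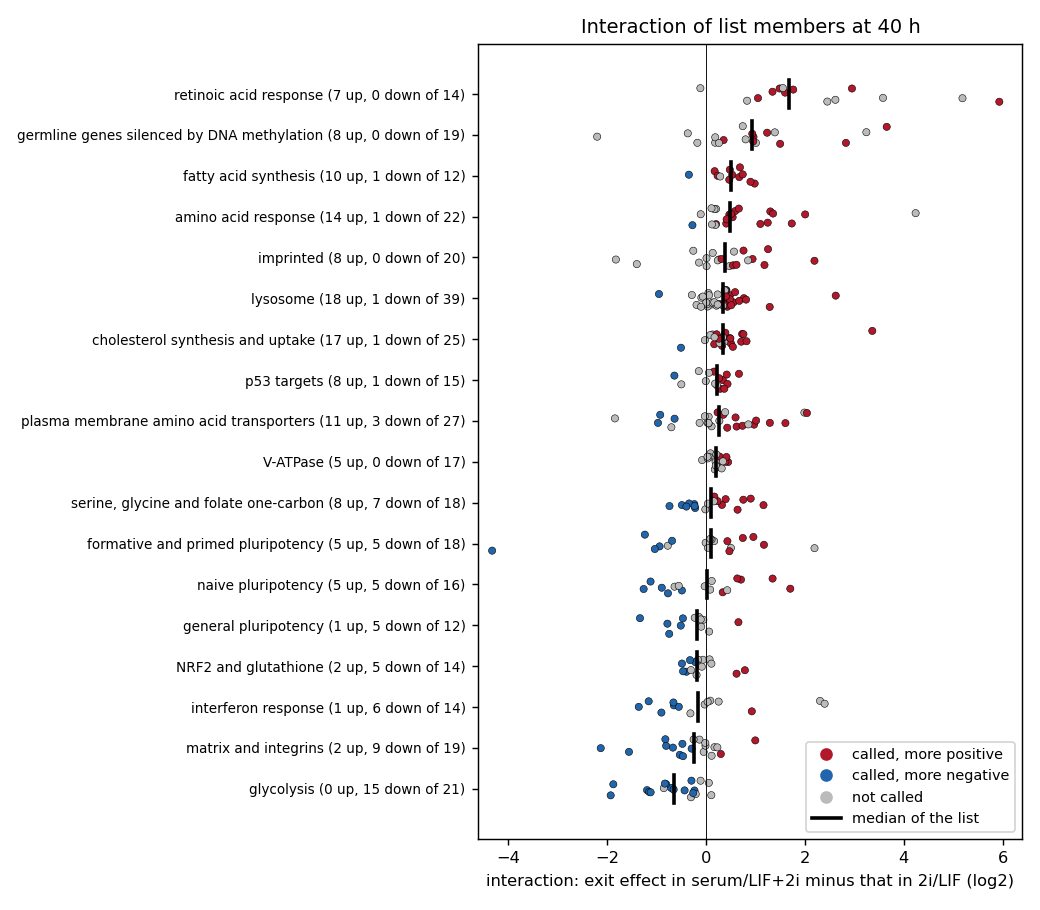
Interaction (log2, x axis) of each tested member of 18 gene lists; 1 point is 1 gene, red and blue points are called, grey points are not, and black bars are list medians. Called glycolysis genes all lie below 0, whereas all called retinoic acid and germline genes lie above it.

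Several genes that respond to retinoic acid rose more in cells from serum/LIF+2i. Of 14 members, 7 were called more positive and 0 more negative (50% called, against 27.6% of all genes tested). The median interaction was 1.68, or 1.42 over the 8 members with no group at 3 counts or fewer per library. At 0 h 8 were lower in serum/LIF+2i and 0 higher; at 40 h 10 were higher and 1 lower. Stra8 (Entrez 20899, chr6:34920163-34939344), a retinoic acid target needed for meiosis, had the most positive interaction among called genes that averaged 5 CPM or more and had no group at 3 counts or fewer in both libraries. Its libraries stood at 22.2 and 19.9 CPM at 0 h and 25.7 and 35.5 at 40 h in 2i/LIF, against 0.882 and 1.47 at 0 h and 105 and 106 at 40 h in serum/LIF+2i, so serum/LIF+2i was far below 2i/LIF before exit and above it at 40 h. The interaction was 5.93 ± 0.30 (SE), adjusted p = 8.05e-20. The 12 h libraries of serum/LIF+2i carry that time in their titles, whereas the protocol text gives 24 and 40 h for these cells. In between, its levels in serum/LIF+2i were 5.68 and 6.49 CPM at 12 h and 39.0 and 51.6 at 24 h, while those in 2i/LIF ran from 18.2 to 38.3 over the 2 times.

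Rarg, a retinoic acid receptor, stood at 64.3 and 69.0 CPM at 0 h and 320.2 and 326 at 40 h in 2i/LIF, against 27.3 and 28.5 at 0 h and 412 and 409 at 40 h in serum/LIF+2i, an interaction of 1.60 ± 0.084 (SE), adjusted p = 6.89e-34. Its order too reversed between 0 and 40 h, without overlap. Meis2, a homeobox cofactor, stood at 36.7 and 34.8 CPM at 0 h and 28.4 and 31.0 at 40 h in 2i/LIF, against 29.8 and 26.0 at 0 h and 57.7 and 60.4 at 40 h in serum/LIF+2i. It fell in 2i/LIF and rose in serum/LIF+2i, with exit effects of -0.27 (2i/LIF) and 1.08 (serum/LIF+2i) and an interaction of 1.35 ± 0.14 (SE), adjusted p = 9.20e-15. A pair of GGTCA in the same direction with 6 or with 3 bases between them, as in the DR5 and DR2 repeats that retinoic acid receptors bind, searched on both strands, were in 0 of the 12 promoters in the table, against 0.0457% and 0.110% of tested genes.

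Of 19 germline genes that DNA methylation silences, 8 were called more positive, 0 more negative and 11 were not called. That is 42.1% called, against 27.6% of all genes tested. The median was 0.94 (0.87 over the 16 members with no group at 3 counts or fewer). Dazl, an RNA-binding protein of germ cells, stood at 53.1 and 55.6 CPM at 0 h and 13.7 and 14.8 at 40 h in 2i/LIF, against 14.5 and 10.6 at 0 h and 23.3 and 23.5 at 40 h in serum/LIF+2i. It fell in 2i/LIF and rose in serum/LIF+2i, with exit effects of -1.94 (2i/LIF) and 0.90 (serum/LIF+2i) and an interaction of 2.83 ± 0.17 (SE), adjusted p = 3.73e-29. The rise was not monotonic: its levels in serum/LIF+2i at 24 h were 41.5 and 35.6 CPM, above those at 40 h. Sohlh2, a germ cell transcription factor, and Fkbp6, a factor of the piRNA pathway, had interactions of 1.5 and 0.96, with adjusted p-values of 9.56e-10 and 4.12e-05.

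Dnmt3l (Entrez 54427, chr10:78042287-78063622), the cofactor of the de novo DNA methyltransferases, had an interaction of -3.42 ± 0.24 (SE), adjusted p = 6.08e-06. Its libraries stood at 8.62 and 6.38 CPM at 0 h and 251 and 307 at 40 h in 2i/LIF, against 184 and 153 at 0 h and 587 and 596 at 40 h in serum/LIF+2i. It rose in both media and was higher in serum/LIF+2i at both times, by a far larger ratio at 0 h. Its neighbour Aire (Entrez 11634, chr10:78030022-78043610), the autoimmune regulator, overlaps it in the annotation, so their reads cannot be told apart here. Aire stood at 1.03 and 0.456 CPM at 0 h and 10.4 and 10.5 at 40 h in 2i/LIF, against 14.8 and 10.4 at 0 h and 6.89 and 5.42 at 40 h in serum/LIF+2i, an interaction of -4.84 ± 0.40 (SE), adjusted p = 8.05e-20. In the 2i/LIF libraries at 0 h, 3 counts equal 0.517 and 0.456 CPM, so part of this size rests on few counts. Dnmt3b rose in both media and less in serum/LIF+2i, with exit effects of 4.11 (2i/LIF) and 3.43 (serum/LIF+2i) and an interaction of -0.68 ± 0.061 (SE), adjusted p = 1.74e-16.

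Imprinted genes, which are expressed from 1 parental copy, had 8 of 20 members called (40%), all more positive. Over all genes tested 27.6% were called, and 14.8% were more positive. The list's median interaction was 0.40 (0.55 over the 17 members with no group at 3 counts or fewer). At 40 h 12 were higher in serum/LIF+2i and 0 lower; at 0 h 3 were higher and 5 lower. Meg3 and Rian, noncoding RNAs of 1 imprinted cluster on chromosome 12, had interactions of 0.94 ± 0.061 (SE), adjusted p = 5.16e-27 and 0.76 ± 0.060 (SE), adjusted p = 2.62e-21. Meg3 stood at 214 and 204 CPM at 0 h and 489.9 and 530.2 at 40 h in 2i/LIF, against 129 and 129.7 at 0 h and 614 and 602 at 40 h in serum/LIF+2i. Peg10, a gene derived from a retrotransposon, stood at 49.6 and 43.7 CPM at 0 h and 233 and 258 at 40 h in 2i/LIF, against 28.9 and 32.0 at 0 h and 373 and 394 at 40 h in serum/LIF+2i, an interaction of 1.26 ± 0.11 (SE), adjusted p = 5.81e-18. Both genes were lower in serum/LIF+2i before exit and higher at 40 h, without overlap. Peg3, a zinc finger gene, had an interaction of 1.18 (adjusted p = 6.25e-20). Cdkn1c, an imprinted inhibitor of cyclin-dependent kinases, rose to 26.8 and 28.8 CPM in 2i/LIF and to 80.1 and 83.5 in serum/LIF+2i from at most 2.28 CPM at 0 h, an interaction of 2.20 ± 0.45 (SE), adjusted p = 3.76e-05.

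**Figure D4:**
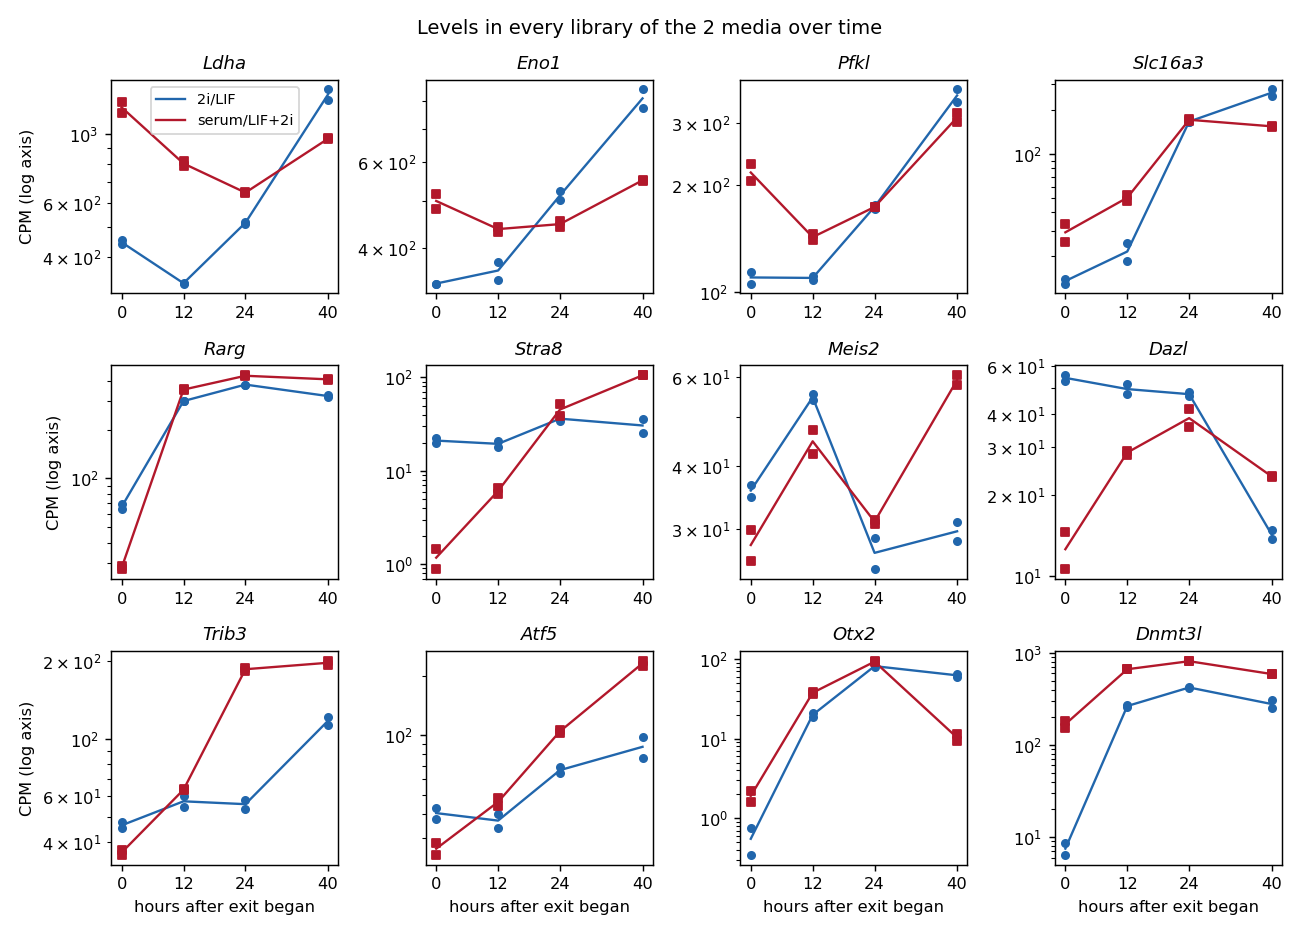
CPM (log axis) of 12 genes at 0, 12, 24 and 40 h after exit began; circles are the 2 libraries of 2i/LIF, squares those of serum/LIF+2i, and lines join the means. Ldha, Eno1 and Pfkl start higher in serum/LIF+2i and end lower, Rarg, Stra8, Meis2, Trib3 and Atf5 start lower and end higher, and Otx2 is at similar levels in both media at 24 h before it falls in serum/LIF+2i.

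Genes of naive pluripotency fell steeply in both media, 15 of 16 in each, and 5 interactions were called more positive and 5 more negative, with a median of 0.03. Esrrb and Nanog, core naive factors, were lower at 40 h in serum/LIF+2i. Esrrb stood at 912 and 919 CPM at 0 h and 39.6 and 35.2 at 40 h in 2i/LIF, against 915 and 904 at 0 h and 15.4 and 15.7 at 40 h in serum/LIF+2i, an interaction of -1.26 ± 0.087 (SE), adjusted p = 3.33e-25. Nanog had an interaction of -1.12 ± 0.10 (SE), adjusted p = 7.04e-19. Nr0b1 and Fgf4 were also more negative, at -0.89 and -0.77, whereas Klf2 fell less in serum/LIF+2i (0.71; largest adjusted p of the 3 = 4.29e-09). Gbx2, a homeobox gene, rose in both media and more in serum/LIF+2i, from 28.8 and 17.9 to 90.7 and 84.6 CPM there and from 52.7 and 50.6 to 57.6 and 61.3 in 2i/LIF, giving an interaction of 1.71 ± 0.13 (SE), adjusted p = 1.70e-19.

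Genes shared by naive and later pluripotency leaned the other way, with 5 of 12 called more negative and 1, Dppa2, more positive. Utf1, an ES cell chromatin factor, had an interaction of -1.33 ± 0.12 (SE), adjusted p = 4.12e-12, with exit effects of 4.33 (2i/LIF) and 2.99 (serum/LIF+2i). L1td1, Tdgf1 and Lin28a had interactions of -0.78, -0.74 and -0.51 (largest adjusted p = 1.34e-10). Tdgf1, a Nodal co-receptor, rose in 2i/LIF and fell in serum/LIF+2i. Among 18 formative and primed genes, 5 were called each way, although the more positive count fell to 3 when replicate 1 of serum/LIF+2i at 0 h was left out. Otx2 (Entrez 18424, chr14:48656781-48667644), a homeobox factor of the formative state, stood at 0.345 and 0.759 CPM at 0 h and 64.8 and 60.1 at 40 h in 2i/LIF, against 1.62 and 2.20 at 0 h and 11.3 and 9.29 at 40 h in serum/LIF+2i, an interaction of -4.32 ± 0.54 (SE), adjusted p = 6.68e-11. Yet at 24 h its levels were 84.0 and 78.9 CPM in 2i/LIF, against 94.6 and 90.8 in serum/LIF+2i. Besides the lower serum/LIF+2i level at 40 h, the interaction takes in the higher level of that medium at 0 h. There, 3 counts in the 2i/LIF libraries equal 0.517 and 0.456 CPM, so part of the interaction's size rests on few counts. Lef1, a mediator of Wnt signals, was more positive at 1.17, and Lin28b and Sall2 were more negative at -1.03 and -0.94, with adjusted p-values of 8.72e-11, 1.57e-06 and 9.20e-06.

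The called share of signalling genes differed by pathway, in lists of 9 to 15 genes. The share of all genes beside them is not matched for expression. ERK targets had 7 of 15 called more positive and 2 more negative (60% called, against 27.6% of all genes tested), and Nodal genes 7 and 3 of 15 (66.7%). Wnt targets had 3 and 1 of 11 (36.4%), and LIF and STAT3 genes 2 and 2 of 9 (44.4%). Notch genes had 1 and 2 of 14 (21.4%) and BMP genes 2 and 1 of 13 (23.1%), both below the share of all genes. Lefty1, a Nodal antagonist, stood at 21.9 and 26.4 CPM at 0 h and 60.0 and 59.8 at 40 h in 2i/LIF, against 7.05 and 6.61 at 0 h and 76.5 and 75.3 at 40 h in serum/LIF+2i, an interaction of 2.17 ± 0.17 (SE), adjusted p = 1.01e-20; it was lower in serum/LIF+2i at 0 h and higher at 40 h. Nodal itself went the other way, at -0.73 ± 0.11 (SE), adjusted p = 1.08e-07, and fell further in serum/LIF+2i. Dusp6 and Spred1, feedback inhibitors of ERK signalling, had interactions of 1.48 and 0.75, and Etv5, an ERK-induced factor, one of -0.34 (largest adjusted p = 2.14e-06). Axin2, a Wnt target, fell in both media and less in serum/LIF+2i, at 0.90 (adjusted p = 2.15e-05). The LIF receptor genes Lifr and Il6st, which pair at the membrane, fell in both media but differed in opposite ways, at -0.68 and 0.45, with adjusted p-values of 4.90e-06 and 2.88e-05. Rbpj, the DNA-binding partner of Notch, was more negative at -0.70 ± 0.082 (SE), adjusted p = 4.68e-12. Myc and Mycn, closely related growth regulators, also went opposite ways. Myc rose to 53.1 and 61.3 CPM in 2i/LIF, against 99.3 and 101 in serum/LIF+2i, an interaction of 1.3 ± 0.22 (SE), adjusted p = 8.81e-07. Mycn rose in 2i/LIF from 79.8 and 79.6 to 191 and 162 CPM and fell in serum/LIF+2i from 126 and 111 to 101 and 88.4, an interaction of -1.47 ± 0.091 (SE), adjusted p = 1.53e-21.

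Matrix and integrin genes leaned negative, with 9 of 19 called more negative and 2 more positive (57.9% called, against 27.6% of all genes tested). Col18a1 and Nid2, of basement membranes, and Hspg2, perlecan, had interactions of -0.82, -0.67 and -0.53 (largest adjusted p = 2.05e-14). Itga5 and Fn1, an integrin chain and its ligand fibronectin, were the 2 more positive members, at 1.00 and 0.30 (larger adjusted p = 6.25e-08). Interferon response genes were called more negative in 6 of 14 cases and more positive in 1, Irf9 (2 members when replicate 2 of serum/LIF+2i at 0 h was left out). Of the interferon list 50% were called. Ifitm1, an antiviral membrane protein, fell from 189 and 175 to 30.7 and 27.3 CPM in 2i/LIF and from 178 and 203 to 11.8 and 11.9 in serum/LIF+2i, an interaction of -1.36 ± 0.13 (SE), adjusted p = 1.74e-16. Ifitm2, Ifitm3 and Ddx58 (the RNA sensor RIG-I) had interactions of -0.55, -0.66 and -1.16 (largest adjusted p = 3.19e-09). Genes of the NRF2 and glutathione list had 5 of 14 called more negative, led by Prdx1, a peroxiredoxin, at -0.48, and 2 more positive, Srxn1 and Hmox1, at 0.79 and 0.62 (largest adjusted p of the 3 = 2.21e-09). Of this list 50% were called.

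Genes of serine, glycine and folate metabolism split, with 8 of 18 called more positive (5 when replicate 2 of 2i/LIF at 0 h was left out) and 7 more negative. Shmt2, the mitochondrial enzyme that makes glycine from serine, stood at 296 and 316 CPM at 0 h and 397 and 427 at 40 h in 2i/LIF, against 269.9 and 288 at 0 h and 642 and 628 at 40 h in serum/LIF+2i, an interaction of 0.76 ± 0.056 (SE), adjusted p = 6.07e-23, with serum/LIF+2i below at 0 h and above at 40 h. Tdh, threonine dehydrogenase, a hallmark of mouse ES cell metabolism, fell in both media and further in serum/LIF+2i, at -0.74 ± 0.070 (SE), adjusted p = 2.16e-16. Mthfd1, of folate metabolism, fell in both media and further in serum/LIF+2i, at -0.34 (adjusted p = 7.55e-08). Glul, glutamine synthetase, fell in 2i/LIF and rose in serum/LIF+2i, at 0.59 ± 0.076 (SE), adjusted p = 1.22e-10. Odc1, the first enzyme of polyamine synthesis, rose in both media and less in serum/LIF+2i, at -0.31 (adjusted p = 4.68e-06). The mitochondrially encoded cytochrome oxidase gene COX1 fell in both media and further in serum/LIF+2i, at -0.35 ± 0.039 (SE), adjusted p = 1.37e-12. Genes of the hypoxia response went both ways, with 2 of 10 called more positive and 5 more negative (70% called, against 27.6% of all genes tested). The more negative count was 2 by DESeq2 and 3 when any 1 library other than replicate 2 of serum/LIF+2i at 40 h was left out. Among them Bnip3, a mitophagy receptor, had an interaction of -1.53, while Kdm3a, a histone demethylase, and Vegfa, a growth factor for blood vessels, had interactions of 0.49 and 0.68 (largest adjusted p = 1.05e-06).

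Of the 308 genes with opposite exit effects, 11 had both absolute effects at 1 or more, of which 3, Aire and Tuba3a among them, averaged 5 CPM or more. Genes averaging 5 CPM or more were then ranked by the smaller of their 2 absolute exit effects, whatever its size. High in that order, beside Dazl, were Tuba3a (an alpha-tubulin with a near-identical copy, Tuba3b, so that its counts are uncertain), Frem2 (a matrix protein), Fam129a and Tspan6 (a tetraspanin), which fell in 2i/LIF and rose in serum/LIF+2i. Frem2 stood at 38.6 and 36.5 CPM at 0 h and 19.7 and 18.3 at 40 h in 2i/LIF, against 6.02 and 6.32 at 0 h and 16.2 and 19.5 at 40 h in serum/LIF+2i, an interaction of 2.5 ± 0.22 (SE), adjusted p = 1.46e-18. Fam129a stood at 139.6 and 139.6 CPM at 0 h and 35.8 and 51.8 at 40 h in 2i/LIF, against 63.0 and 67.1 at 0 h and 121 and 126 at 40 h in serum/LIF+2i, an interaction of 2.60 ± 0.10 (SE), adjusted p = 1.38e-29. Tuba3a and Tspan6 had interactions of 2.06 and 1.99 (larger adjusted p = 1.74e-10). In the other direction, beside Aire, were Plcd1 (a phospholipase C), Lats2 (a Hippo kinase), Cnn2 (calponin 2), Olig2 (a neural transcription factor) and Ifnar2 (an interferon receptor chain). Cnn2 stood at 12.1 and 7.59 CPM at 0 h and 42.5 and 36.8 at 40 h in 2i/LIF, against 34.1 and 31.9 at 0 h and 19.3 and 22 at 40 h in serum/LIF+2i, an interaction of -2.71 ± 0.18 (SE), adjusted p = 8.42e-25, with serum/LIF+2i above at 0 h and below at 40 h. Lats2 stood at 5 and 4.1 CPM at 0 h and 7.39 and 8.29 at 40 h in 2i/LIF, against 10.4 and 10.6 at 0 h and 4.05 and 4.74 at 40 h in serum/LIF+2i, an interaction of -2.05 ± 0.31 (SE), adjusted p = 2.73e-08. Plcd1 overlapped between media at 0 h and was lower in serum/LIF+2i at 40 h, at 4.74 and 5.42 CPM against 23.2 and 19.3 for 2i/LIF, giving an interaction of -2.13 ± 0.26 (SE), adjusted p = 2.23e-11.

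Large interactions among other genes joined several functions. Podxl, a sialomucin of the cell surface, stood at 10.9 and 11.2 CPM at 0 h and 90.5 and 82.8 at 40 h in 2i/LIF, against 36.6 and 41.9 at 0 h and 43.2 and 49.3 at 40 h in serum/LIF+2i, an interaction of -2.74 ± 0.15 (SE), adjusted p = 6.90e-33. It rose in both media, with exit effects of 2.97 (2i/LIF) and 0.23 (serum/LIF+2i). Igfbp2, an IGF-binding protein, rose in 2i/LIF from 146 and 173 to 441 and 411 CPM, and its exit effect of 0.077 in serum/LIF+2i was not called (interaction -1.33, adjusted p = 1.45e-29). Sgk1, a kinase that serum and glucocorticoids induce, fell from 423 and 414 to 55.2 and 52.2 CPM in serum/LIF+2i and from 383 and 369 to 122 and 118 in 2i/LIF, giving an interaction of -1.32 ± 0.071 (SE), adjusted p = 5.72e-33. Htra1, a secreted protease, fell further in serum/LIF+2i, with exit effects of -1.68 (2i/LIF) and -5.12 (serum/LIF+2i), an interaction of -3.44 ± 0.56 (SE), adjusted p = 2.93e-07. Its size was unsteady, from -4.76 to -2.69 as each library in turn was left out. Usp44, a deubiquitinase, started higher in serum/LIF+2i and reached overlapping levels, 63.5 and 63.3 CPM in 2i/LIF, against 64.1 and 62.0 in serum/LIF+2i, an interaction of -2.75 ± 0.33 (SE), adjusted p = 7.39e-12. Sema6a, a semaphorin, rose to 94.7 and 81.1 CPM in 2i/LIF, against 41.4 and 41.9 in serum/LIF+2i, an interaction of -2.47 ± 0.30 (SE), adjusted p = 3.39e-11.

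On the positive side, Ggt1, gamma-glutamyltransferase, and Efnb1, ephrin B1, fell in 2i/LIF, while their exit effects in serum/LIF+2i were not called. Ggt1 stood at 27.7 and 19.9 CPM at 0 h and 3.26 and 3.80 at 40 h in 2i/LIF, against 5.29 and 3.97 at 0 h and 4.05 and 5.42 at 40 h in serum/LIF+2i, an interaction of 2.77 ± 0.33 (SE), adjusted p = 1.24e-11, and Efnb1 had one of 2.76 (adjusted p = 3.19e-11). Nphs1, nephrin, rose from 7.35 and 7.49 to 49.7 and 49.5 CPM in serum/LIF+2i and from 49.5 and 53.8 to 61.4 and 65.1 in 2i/LIF, giving an interaction of 2.45 ± 0.15 (SE), adjusted p = 3.06e-28. Aqp3, an aquaglyceroporin, fell in both media and further in 2i/LIF, with exit effects of -8.23 (2i/LIF) and -5.19 (serum/LIF+2i), an interaction of 3.04 ± 0.38 (SE), adjusted p = 3.93e-11. Itgam, an integrin chain of myeloid cells, had an interaction of 2.96 ± 0.47 (SE), adjusted p = 6.78e-07, at no more than 15.9 CPM in any library. Zscan4a, of the gene cluster that marks cells like the 2-cell embryo, rose from 2.24 and 3.80 to 6.51 and 8.02 CPM in 2i/LIF and from 0.735 and 0.734 to 11.2 and 13.2 in serum/LIF+2i, an interaction of 2.78 ± 0.50 (SE), adjusted p = 3.42e-06. Its near-identical copies may share its reads, so its counts are uncertain. The 10 other markers of such cells moved with it, from 4.1 to 7.07 CPM in sum in 2i/LIF at 0 h to 17.2 to 26.9 at 40 h, and from 0.881 to 1.62 in serum/LIF+2i at 0 h to 43.3 to 43.5 at 40 h; how much of the result their cells account for was not tested.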

How the data were processed

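The 16 libraries are stranded poly(A) RNA-seq. The authors deposited whole-number read counts per Entrez gene; the submitters' processing notes name fastp, STAR, featureCounts and mm10, and the versions and the strand setting are not given in the sources used here. Symbols, positions and promoters came from RefSeq's GRCm38.p6 tables.

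Counts were fitted with edgeR 4.0.16 (R 4.3.3): filterByExpr with a minimum count of 10, TMM scaling, a robust quasi-likelihood fit (which lowers the degrees of freedom of genes with outlying spread) of 8 group means over all 16 libraries, and Benjamini-Hochberg adjustment over 14288 genes. The standard error is the absolute log2 value over the square root of F. DESeq2 1.42.0 and limma 3.58.1 served as alternatives, with other scalings, filters, thresholds and single libraries left out. Same-numbered libraries showed no strong shared shift, and replicate numbers were not used as a block in the main fit. Replicates differed by more than sampling noise (chi-square over degrees of freedom 1.35 to 2.88, without ribosomal RNA genes). Total counts ran from 5931381 to 11142744, which limits low genes most.

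Named genes were those called with a mean of at least 5 CPM and the largest interactions, smallest adjusted p or opposite exit effects, the largest per class of medium difference, and up to 4 or 6 of each of 36 lists by adjusted p with members against their list's direction. Of genes with a group at 3 counts or fewer, Cdx1 is given by its levels alone and the others are not given. The comparison and lists were chosen with earlier results of these data known. On simulated data with 14288 genes, the fit called 20 of 66 genes changed by 0.5 on the log2 scale. It called 46 of 67 changed by 1 and 60 of 67 changed by 2, with 7 false calls. Whether these rates hold for the measured libraries was not tested. A few named genes are not reported here.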

Additional observations from a re-analysis of the deposited data

Results flagged for a closer look

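The exit effects of the 2 media differed by the test of the interaction in 3940 genes. Among genes averaging 5 CPM or more that moved in opposite directions in the 2 media, with both exit effects called, the following stood high when ranked by the smaller of the 2 absolute exit effects in each direction. Those that rose in serum/LIF+2i and fell in 2i/LIF had interactions of 2.06 for Tuba3a, 2.5 for Frem2, 2.60 for Fam129a, 2.83 for Dazl and 1.99 for Tspan6. The reverse held for Aire (interaction -4.84), Plcd1 (-2.13), Lats2 (-2.05), Cnn2 (-2.71), Olig2 (-1.88) and Ifnar2 (-1.33). For Aire, reads cannot be told apart from those of Dnmt3l, and the level in 2i/LIF at 0 h rests on few counts. Each of these 11 kept its interaction call when any 1 of the 8 libraries was left out. They were chosen from these same data, and whether both exit effects stayed called in opposite directions was not checked.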

How the results depend on the processing

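No interaction called both as reported and under an alternative differed in sign between the 2. Leaving out each library in turn gave 3205 to 3572 called interactions, against 3940. DESeq2 called 2419 (1317 more positive, 1102 more negative), of which 2418 were shared, and 3115 and 2010 medium differences at 0 and 40 h (1326 higher at 0 h; 917 higher and 1093 lower at 40 h). Requiring an absolute log2 value of at least 1 left 803 interactions (524 and 279), 4207 exit effects in 2i/LIF (2214 up, 1993 down), 4212 in serum/LIF+2i (2402 up, 1810 down), 813 medium differences at 0 h (325 higher, 488 lower) and 482 at 40 h (313 higher, 169 lower). An adjusted p under 0.01 left 2563 medium differences at 40 h, 1260 of them higher. With single libraries left out, those at 40 h ran from 2240 (1122 higher, 1118 lower), without replicate 1 of 2i/LIF at 40 h, up to 4074. At most 2066 were then higher and at most 2064 lower. Scaling by library size only gave 2349 higher and 1557 lower at 40 h, so the balance of directions depended on the scaling. The cause of these changes was not tested. The more positive share of called interactions was 53.5%. It was 49.5% without ribosomal RNA genes, and 49.8% with these genes kept but only the 8 libraries of the contrast fitted. The replicate block gave 3947 interactions. Deviations of same-numbered libraries correlated at -0.0073 to 0.033, so no strong shared shift was seen. Such values cannot exclude that a replicate number marks a shared culture or batch. Of 214 named genes, 173 kept their call without each library in turn, and DESeq2 lost 20. Differences in genes of low count were limited by depth.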

Other observations

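Among lists not described above, genes of endoplasmic reticulum stress had 8 of 17 members called more positive and 1 more negative, with a median interaction of 0.24. That is 52.9% called, against 27.6% of all genes tested. The more positive count was 5 when replicate 2 of serum/LIF+2i at 0 h or replicate 2 of serum/LIF+2i at 40 h was left out. Hyou1, a chaperone, Sel1l, a component of the machinery that degrades misfolded proteins, and Canx, calnexin, had interactions of 0.54, 0.88 and 0.30, while Pdia6, a disulfide isomerase, had one of -0.31 (largest edgeR adjusted p = 4.45e-06). Targets of p53 had 8 of 15 called more positive and 1 more negative (60% called), with 5 more positive by DESeq2 and 5 when replicate 2 of 2i/LIF at 40 h was left out. Trp53inp1, Plk2 and Mdm2, the ubiquitin ligase that restrains p53, had interactions of 0.44, 0.67 and 0.34 (largest adjusted p = 1.14e-04). At 40 h 10 endoplasmic reticulum stress genes and 7 p53 targets were higher in serum/LIF+2i and 0 of either list were lower.

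Early lineage genes went both ways. Nes, the filament protein nestin of neural progenitors, stood at 12.2 and 14.4 CPM at 0 h and 48.2 and 41.6 at 40 h in 2i/LIF, against 28.9 and 28.8 at 0 h and 30.3 and 31.5 at 40 h in serum/LIF+2i, an interaction of -1.65 ± 0.16 (SE), adjusted p = 2.53e-15 by edgeR. Tubb3, a tubulin of neurons, went the other way at 1.05 (adjusted p = 5.88e-12). Cdx1, a posterior homeobox gene, stood at 183 and 178 CPM at 0 h and 0.125 and 0.136 at 40 h in 2i/LIF, against 54.7 and 46.7 at 0 h and 0.948 and 1.26 at 40 h in serum/LIF+2i; its level in 2i/LIF at 40 h rests on 1 count in each library, so no fitted value is given. Nkx1-2, another posterior gene, had an interaction of 1.21 (adjusted p = 1.59e-04). Bambi, a decoy receptor for BMP, and Smad5, a BMP signal transducer, had interactions of -0.75 and 0.50, with adjusted p-values of 0.00313 and 3.57e-05. Cldn4, a claudin of tight junctions, Epcam, an adhesion protein, and Vim, vimentin, had interactions of -0.51, 0.43 and 0.63 (largest adjusted p = 1.03e-05).

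Regulators of macropinocytosis, the bulk uptake of fluid, had 5 of 24 members called (20.8%, against 27.6% of all genes tested), 2 more positive and 3 more negative, and DESeq2 called 3 (2 and 1). Snx1 and Ctbp1 were more positive, at 0.59 and 0.35, and Cdc42, a GTPase of the actin skeleton, was more negative at -0.25 (largest adjusted p of the 3 = 5.51e-04). Of 20 aminoacyl-tRNA synthetases, 12 were higher in serum/LIF+2i at 0 h and 12 at 40 h. Their interactions were called more positive in 7 and more negative in 4, against 2 and 2 by DESeq2. The 11 calls came to 5 without replicate 2 of 2i/LIF at 0 h, and to 6 without replicate 1 of 2i/LIF at 40 h or replicate 1 of serum/LIF+2i at 40 h. Kars, lysyl-tRNA synthetase, had an interaction of -0.27 (adjusted p = 1.11e-05). Mtap, which salvages methionine, had one of -0.52, and Prodh, proline dehydrogenase, one of -0.84, with adjusted p-values of 1.61e-08 and 3.46e-04.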
